A study of Mus musculus with 12 samples.

Results

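The proteasome genes were taken as every entry of the deposited count table whose symbol starts with Psm, a letter from a to g and a number, leaving out the immunoproteasome genes Psmb8, Psmb9 and Psmb10. This gave 47 genes of 24421 entries. Of these, 31 encode core subunits of the 20S particle and the 19S cap, and the rest are assembly chaperones, activators, an inhibitor and tissue-restricted subunits. Psmc3ip matched by its symbol only: it encodes a meiotic recombination factor and is no proteasome subunit. The counts came from the tibialis anterior, a hindlimb muscle, of 12 male mice aged 4 months. The WT group held 6 mice of strain C57Bl/6 and the other group 6 mice of strain mdx/mTR. The mdx allele disrupts dystrophin and mTR names the mouse telomerase RNA gene. The labels give neither the mTR generation or zygosity nor whether the groups were littermates, so the effects of both alleles and of the strains' origin cannot be told apart.

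The proteasome degrades proteins that carry ubiquitin chains. Its 20S core is a barrel of alpha rings, which gate the entrance, and beta rings, of which Psmb5, Psmb6 and Psmb7 carry the proteolytic sites. The 19S cap holds a ring of ATPases that unfolds substrates, large scaffold and ubiquitin-binding subunits at its base, and a lid that removes ubiquitin. In muscle the ubiquitin-proteasome system breaks down myofibrillar proteins during atrophy and remodelling. The transcription factor Nfe2l1 drives the subunit genes together when proteasome activity falls short, through antioxidant response elements in their promoters.

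Of the 47 genes, 39 had an entry in the RefSeq promoter table (GRCm38.p6, the build mm10 that the submitters' processing notes name). The windows run from 250 bases before to 50 bases after the gene start. The letters TGACNNNGC, a core of the antioxidant response element, were searched on both strands. They occurred in the windows of 6 members, which are shown because Psmb5 and Psme4, the members with the smallest p for a rise and for a fall among those that hold a motif, are 2 of them. Each match is in capitals with up to 10 neighbouring bases, read 5′ to 3′ on the strand of the match.
Psmb5 (chr14:54618024-54618052, 47 bases before the start, strand of the gene): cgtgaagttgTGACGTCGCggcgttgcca
Psmb6 (chr11:70525338-70525366, 9 bases before the start, strand of the gene): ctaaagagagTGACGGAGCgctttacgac
Psmd9 (chr5:123228149-123228177, 31 bases before the start, strand of the gene): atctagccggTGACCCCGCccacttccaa
Psmc6 (chr14:45329587-45329615, 227 bases before the start, opposite strand): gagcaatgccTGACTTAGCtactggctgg
Psmd12 (chr11:107479278-107479299, 247 bases before the start, opposite strand): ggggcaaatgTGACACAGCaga
Psme4 (chr11:30771758-30771786, 7 bases before the start, opposite strand): gctcttctggTGACGCTGCagccgcagcg

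For orientation, the 150 bases before the Psmb5 start (chr14:54617996-54618145, minus strand) and those before the Psme4 start with the end of its match (chr11:30771625-30771776, plus strand) are given on the strand of the gene, with the match in capitals.
Psmb5: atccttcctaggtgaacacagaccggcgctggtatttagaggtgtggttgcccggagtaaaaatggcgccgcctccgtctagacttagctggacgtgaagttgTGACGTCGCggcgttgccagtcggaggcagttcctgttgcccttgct
Psme4: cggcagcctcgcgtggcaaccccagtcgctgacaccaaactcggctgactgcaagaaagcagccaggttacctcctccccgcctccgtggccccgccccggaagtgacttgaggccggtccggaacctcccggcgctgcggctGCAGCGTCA
Windows with TGACNNNGC made up 14.3% of the 42 member windows and 12.4% of all 32851 windows. The letters CCAAT, also searched on both strands, occurred in 33.3% of member windows and 37.4% of all windows. Both shares in the members were therefore close to those of all promoters of this length. Psma8, Psmb1, Psmb2, Psmb7, Psmc3, Psmd3, Psmd7 and Psmg2 have no entry in the table.

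Each WT library held 36903560 to 40981012 counts and each mdx/mTR library 35136327 to 60330410, and 13937 genes were tested. Levels are normalised counts (CPM) on library sizes scaled by the trimmed mean of M-values (TMM). The myofibre markers were present in every library, with a summed level of 182977 to 214966 CPM in WT and 145368 to 201461 in mdx/mTR. These 8 genes were split: 1 was lower, Myh4 (log2 fold change -0.62), 1 was higher, Mylpf (0.42), and 6 did not pass. With library totals alone 1 was lower and 2 were higher. Of the other marker lists, 7 of 8 macrophage genes, 6 of 6 fibroblast genes and 6 of 6 genes of regenerating muscle were higher in mdx/mTR. Of 5 endothelial genes 3 were lower, Tek (-0.53), Kdr (-0.46) and Tie1 (-0.27), and none higher (median -0.27; with library totals alone 1 lower, median -0.12). Summed macrophage markers ran from 83.4 to 144 CPM in WT and 233 to 629 CPM in mdx/mTR, fibroblast markers from 1074 to 2079 and 2755 to 5692 CPM, and regeneration markers from 28.3 to 40.01 and 109 to 509 CPM. Tmem8c, a fusion gene of regenerating muscle, was at 0 in the lowest WT library, and lymphocyte markers summed to 0.902 to 2.45 CPM over all libraries. The part of these cells in the results below was not tested, and in whole muscle a change in RNA per cell cannot be told apart from a change in the mix of cells. Several libraries stood apart. WT replicate 2 was the lowest of its group for 24 of 31 core genes and mdx/mTR replicate 5 for 19 of 31. WT replicate 6 was high for interferon-induced genes, with a summed level of 359 CPM against 138 to 186 in the other WT libraries. mdx/mTR replicate 5 had the highest regeneration and macrophage sums.

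With TMM, proteasome mRNA differed little between the groups. Of the 45 members that passed the filter on low counts, all 45 had an mdx/mTR level within 25% of the WT level, from -24.8% for Psme4 to 19.2% for Psmb5. Psmb5 exceeded that bound with library totals alone (log2 fold change 0.41) and with core scaling (0.34). At an adjusted p below 0.05 (edgeR quasi-likelihood test), 15 members were lower and 2 higher in mdx/mTR, against 23.4% of all tested genes lower and 25.0% higher (48.3% in either direction). That is 17 of 45 members called; without WT replicate 2 it was 19, without WT replicate 6 it was 14 and without mdx/mTR replicate 5 it was 15. The median log2 fold change was -0.06 over the tested members and 0.01 over all genes tested, and 31 of 45 members had a negative value with TMM, 13 with library totals alone and 19 with core scaling, both described below. Groups that did not overlap were seen for 4 members, Psmd13 (higher), Psmd2, Psmd12 and Psmg1 (lower), against 12.6% of all genes higher, 12.6% lower and 25.2% in either direction. The authors' deposited table gives an adjusted p for the same 45 members and calls the same 17 in the same direction, against 50.1% of all its genes.

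The number of members called in each direction changed with the scaling. When library totals alone were used, the median of all genes moved up by 0.16, from 0.01 to 0.17, and 15 members were then higher and 2 lower (background 40.2% and 11.2%, 51.3% in all). Among the 17 members called with TMM, 3 (Psma4, Psmd3 and Psme3) had the other sign under that scaling, and none of these 3 passed. Apart from Psmb5 and Psmd13, the members called higher there had no call with TMM. Of the 17 calls, 4 were made again in the same direction under that scaling. These 4, Psmb5 and Psmd13 (higher) and Psmd2 and Psme4 (lower), were called the same way under all 5 scalings run. A scaling to the summed counts of the core genes themselves, added after seeing the data, showed how the subunits shifted relative to one another: 7 members were higher and 6 lower (background 30.0% and 14.4%, 44.4% in all). The median of the members was 0.09 with library totals alone and 0.03 with core scaling, beside 0.17 and 0.11 for all genes.

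**Figure D1:**
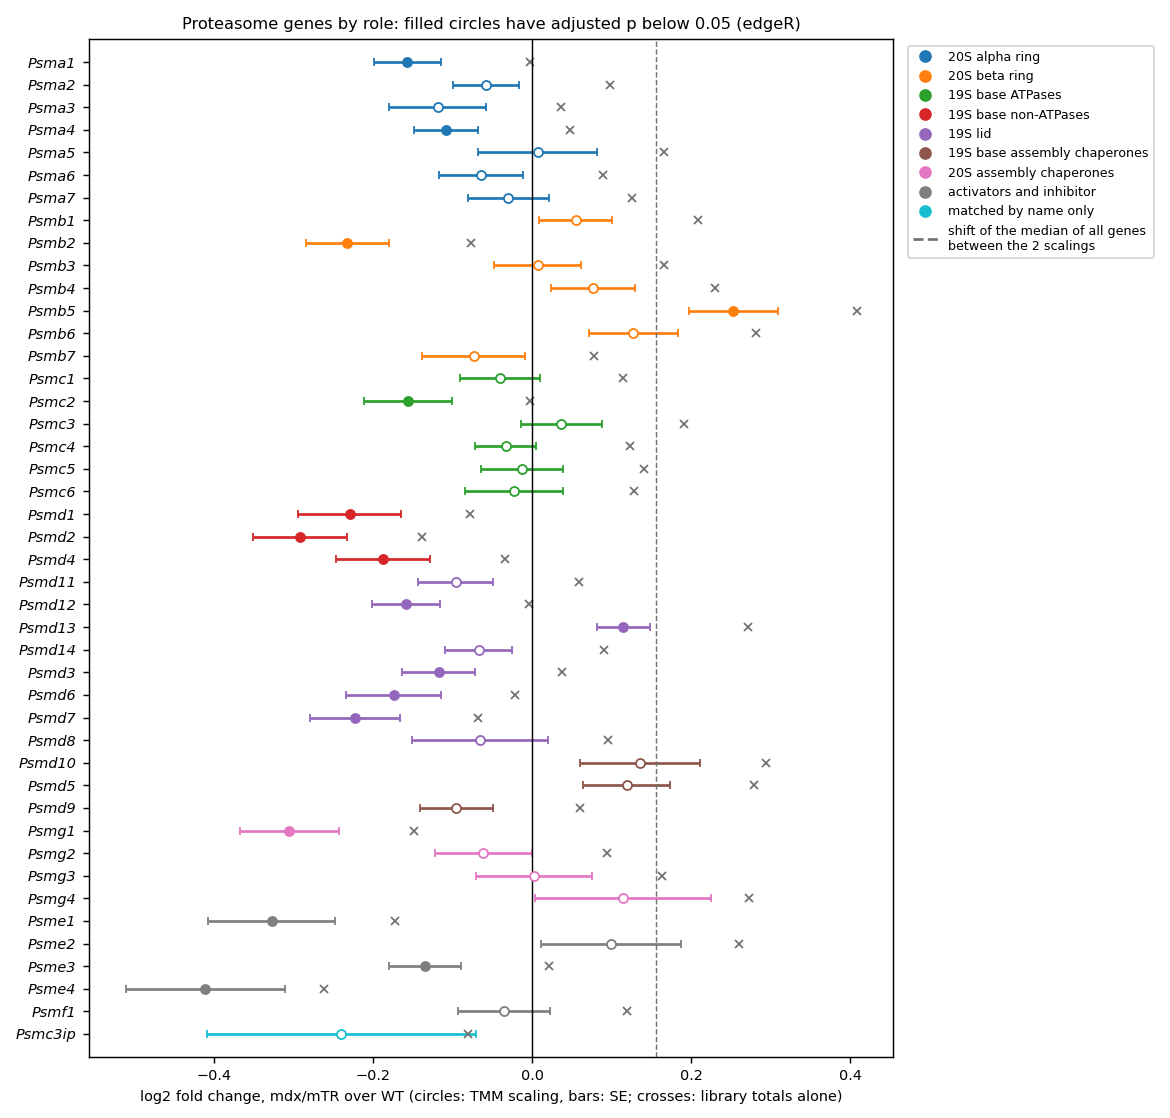
Log2 fold change, mdx/mTR relative to WT (x axis), for the tested members except Psme2b, by role. Circles and bars show the value and SE with TMM scaling, filled where the edgeR adjusted p is below 0.05, and crosses the value with library totals alone, whose median over all genes lies 0.16 higher (dashed line). Psmb5 and Psmd13 are the filled circles to the right of 0.

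The summed level of the 31 core genes was 3328 ± 146 CPM in WT mice and 3127 ± 172 CPM in the mdx/mTR mice (SD, n = 6 each), with ranges of 3051 to 3444 and 2869 to 3298 CPM. The ranges overlap, and as a share of all counts the order was the other way, 0.315% ± 0.00962 for WT against 0.329% ± 0.0102 for mdx/mTR (SD, n = 6 each). Within groups the median coefficient of variation of the core genes was 4.83% in WT and 6.22% in mdx/mTR. Over all genes tested it was 9.70% and 11.7%. The 2 sets were not matched by level, and the tested genes include some with few counts, where the relative counting error is larger. Seen library by library, the median core gene lay 0.10 below the WT mean on the log2 scale in WT replicate 2, and 0.17 below it in mdx/mTR replicate 5. In mdx/mTR replicates 1 and 3 the same median was -0.02 and -0.0041. A WT library was thus among the lowest, and the 2 groups overlapped for all core genes but Psmd2, Psmd12 and Psmd13.

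**Figure D2:**
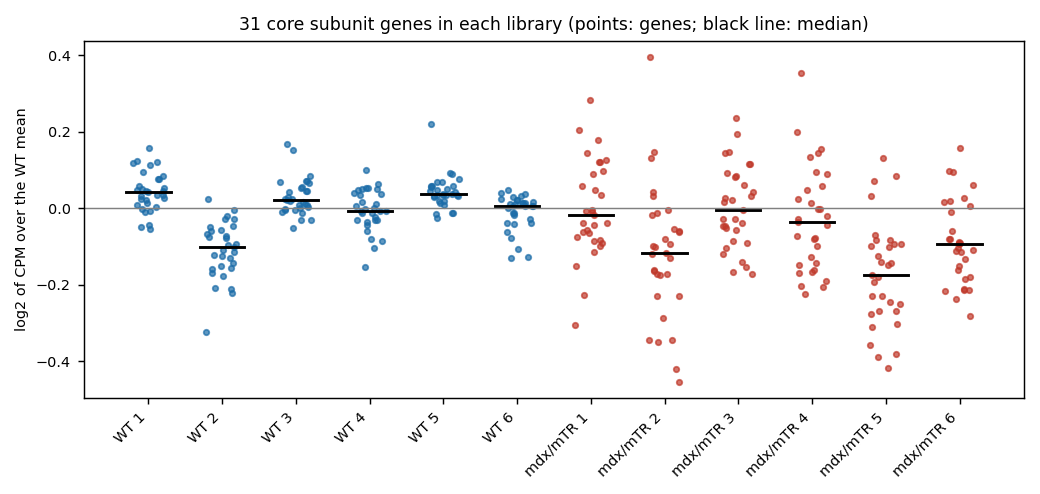
Log2 of CPM over the WT mean (y axis) for the 31 core genes in each of the 12 libraries (x axis); points are genes and black lines medians. The lowest medians are those of mdx/mTR replicates 5 (-0.17) and 2 (-0.12) and WT replicate 2 (-0.10).

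Levels per length of transcript, which put genes on a common scale, spanned 19.5-fold over the core genes in WT. They ran from 8.58 CPM per kb for Psma3 to 167 CPM per kb for Psmb7. The alpha ring alone spanned 12.2-fold, up to 105 CPM per kb for Psma6, and the beta ring 6.47-fold, from 25.8 CPM per kb for Psmb3. The 19S ATPases lay closer together, within 2.07-fold, from 50.9 (Psmc6) to 105 CPM per kb (Psmc3), and the other base subunits within 1.24-fold. The lid ran from 23.1 CPM per kb for Psmd11 to 100 for Psmd6 (4.34-fold). These levels use the longest coding transcript of each gene. For Psma5, Psmb3 and Psmb5, 55.4%, 55.8% and 57.1% of the 50-base stretches of that transcript also occur in transcripts of other genes, so their levels are uncertain. The ends of the span share sequence too, Psma3 for 22.02% and Psmb7 for 28.1% of stretches, and Psma5 (8.61 CPM per kb) lay next to Psma3. The longest coding transcript measured 2.85 kb for Psma3 and 2.91 kb for Psma2, against 1.04 to 1.24 kb for the other alpha ring genes. The low levels of Psma2 and Psma3 therefore depend in part on the choice of transcript, while that of Psma5 used 1.24 kb. The same limit holds for the low end of the lid, Psmd11 (2.85 kb, against 1.39 to 2.15 kb for the other lid genes). It also holds for that of the ATPases, Psmc6 (2.23 kb, against 1.32 to 1.82 kb).

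**Figure D3:**
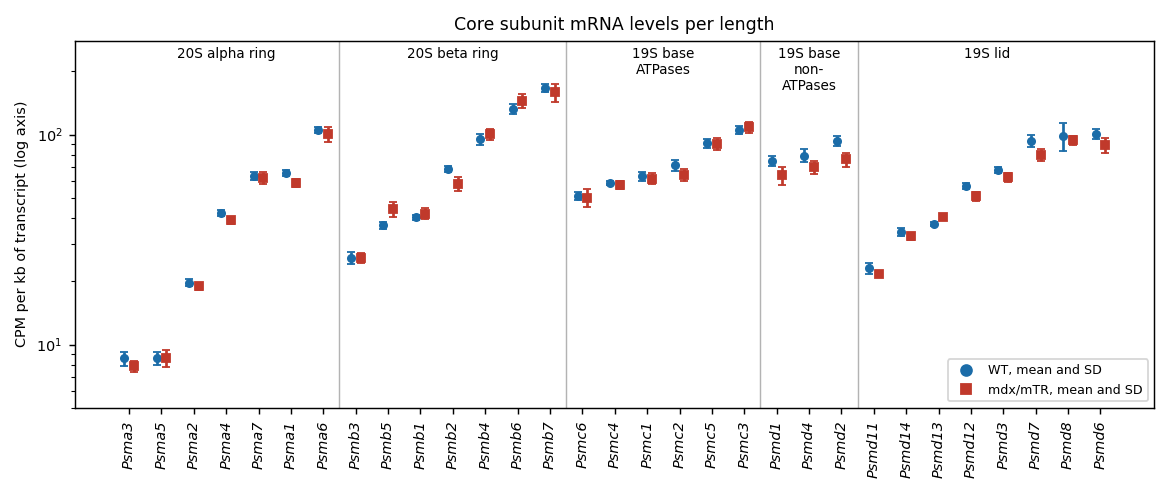
Level in CPM per kb of the longest coding transcript (y axis, log scale) of each core gene (x axis), ordered by WT level within each role; circles are WT and squares mdx/mTR, with the SD over 6 mice. Psma3 and Psma5 lie lowest and Psmb7 highest in WT.

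The alpha ring genes encode the structural subunits that form the gate. None of the 7 rose and 2 fell (median log2 fold change -0.06), against 25.0% of all tested genes higher and 23.4% lower. With library totals alone 2 were higher and 0 lower (median 0.09), against 40.2% and 11.2%. These shares of all genes also stand beside the counts of each role and list below. Psma1 had 76.3 CPM in the lowest WT library, a median of 78.4 and 82.6 in the highest, and 67.2, 70.7 and 76.7 CPM in mdx/mTR. A single mdx/mTR library, replicate 1, reached the lower WT values. Psma1 fell by 0.16 (SE 0.04, edgeR adjusted p 0.0071), a value of -0.0025 with library totals alone. Psma4 had a log2 fold change of -0.11 (SE 0.04, edgeR adjusted p 0.0378). Its sign turned with library totals alone (0.05), and its call held in the fits without WT replicate 2, WT replicate 4, mdx/mTR replicate 1 or mdx/mTR replicate 3 and was lost in the other 8 of 12 (adjusted p up to 0.0846). Psma2 (-0.06), Psma3 (-0.12), Psma5 (0.01), Psma6 (-0.06) and Psma7 (-0.03) did not pass. Psma3 passed without WT replicate 2.

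The beta ring was mixed: 1 of 7 rose and 1 fell (median 0.05), against 25.0% and 23.4% of all tested genes. With library totals alone 5 were higher and 0 lower (median 0.21), against 40.2% and 11.2%. Psmb5, the subunit with chymotrypsin-like activity, ran from 32.1 CPM over a median of 33.0 to 36.0 in WT and from 35.0 over 39.8 to 43.8 in mdx/mTR. Only the lowest mdx/mTR library, replicate 5, fell inside the WT range, below WT replicate 1. Psmb5 rose by 0.25 (SE 0.06, edgeR adjusted p 0.00228), by 0.41 with library totals alone and by 0.34 with core scaling, and it kept its call in each of the 12 fits without one mouse. As given above, much of its transcript is shared with other gene models. Psmb2, a structural subunit whose transcript shares no such stretch, went the other way. It ran from 56.5 over 59.1 to 62.1 CPM in WT and from 46.4 over 49.2 to 57.0 in mdx/mTR, where replicate 3 alone reached the WT range. Psmb2 fell by 0.23 (SE 0.05, edgeR adjusted p 0.0024) and by 0.14 with core scaling. With library totals alone its value was -0.08 and it did not pass (adjusted p 0.247).

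The other catalytic genes did not pass. Psmb6, with caspase-like activity, averaged 106 ± 5.43 CPM in WT against 115 ± 8.69 in mdx/mTR (SD, n = 6 each; log2 fold change 0.13 ± 0.06 SE, edgeR adjusted p 0.075). In mdx/mTR replicate 5 it stood at 99.0 CPM and in the other mdx/mTR libraries at 113 to 122, and without that library it passed (0.16, adjusted p 0.00981). With library totals alone Psmb6 passed as well (0.28, adjusted p 1.6e-04). Psmb7, with trypsin-like activity, had 194 ± 9.33 and 184 ± 18.0 CPM (-0.07 ± 0.06 SE, edgeR adjusted p 0.370), but its value turned positive when scaled by library totals alone (0.08) or by the core genes (0.01). Psmb1 (0.05), Psmb3 (0.01) and Psmb4 (0.08) did not pass with TMM. Scaled to the summed core genes, of which they are part, Psmb1 (0.14), Psmb4 (0.16), Psmb5 and Psmb6 (0.22) were higher and Psmb2 (-0.14) lower. That is 5 of the 7 beta genes, against 44.4% of all tested genes (30.0% higher and 14.4% lower). This scaling was added after seeing the data.

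**Figure D4:**
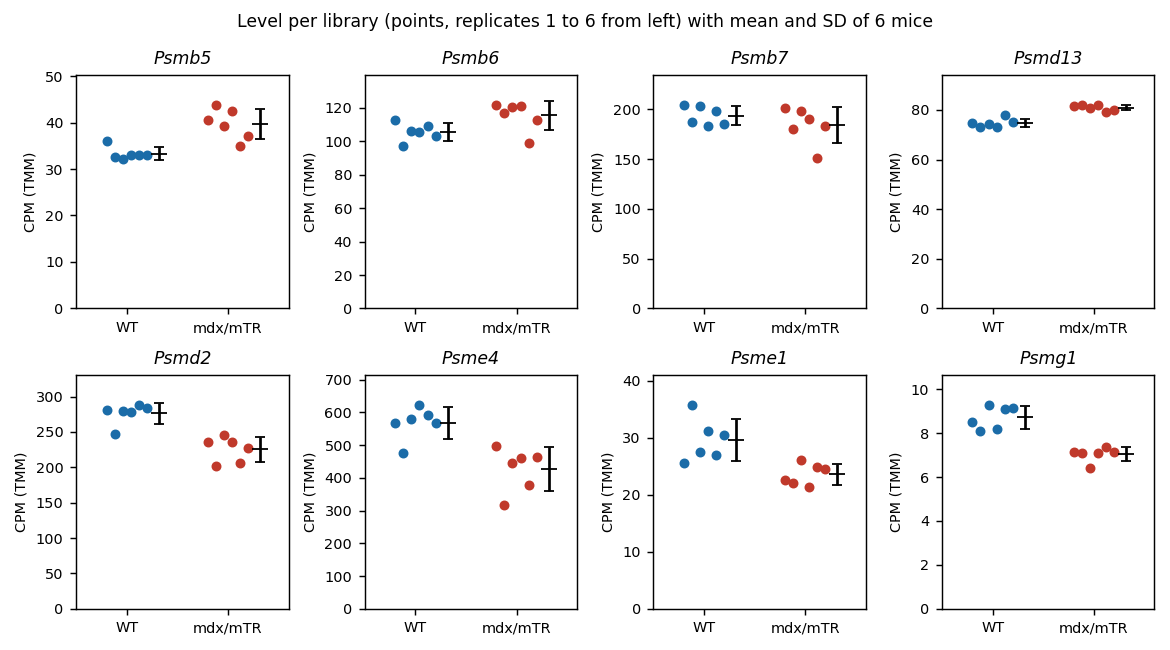
CPM (y axis, from 0) of 8 members in the 6 WT and 6 mdx/mTR libraries (points, replicates 1 to 6 from left), with the mean and SD to the right of each group. Psmd13 lies higher and Psmd2 and Psmg1 lower in mdx/mTR without overlap, whereas Psmb7 overlaps widely.

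The ATPase ring genes had values near 0, from -0.16 (Psmc2) to 0.04 (Psmc3). Of 6 genes none rose and 1 fell, with a median of -0.03 (with library totals alone 5 were higher and 0 lower, median 0.13). Psmc2 had 113, 130 and 135 CPM (lowest, median and highest) in WT and 104, 118 and 123 CPM in mdx/mTR. It fell by 0.16 (SE 0.06, edgeR adjusted p 0.0318), with a value of -0.0025 with library totals alone. WT replicate 2, at 113 CPM, was its lowest WT library, and the call held in 6 of 12 fits without one mouse: those without WT replicate 2, WT replicate 4 or mdx/mTR replicate 1, 3, 4 or 6. It was lost without any other library (adjusted p up to 0.0716). Psmc4 had 84.8 ± 1.89 and 82.9 ± 3.43 CPM (SD, n = 6 each) and did not pass (-0.03 ± 0.04 SE, edgeR adjusted p 0.501); its value turned positive under upper quartile scaling (0.01), library totals alone (0.12) and core scaling (0.06). Psmc1 (-0.04), Psmc5 (-0.01) and Psmc6 (-0.02) did not pass either.

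The 3 base subunits without ATPase activity that carry a Psm symbol, Psmd1, Psmd2 and Psmd4, all fell with TMM, with a median of -0.23 (with library totals alone 0 were higher and 1 lower, median -0.08). Psmd2, a scaffold that also receives ubiquitin-like shuttle proteins, ran from 247 over 280 to 288 CPM in WT and from 202 over 231 to 246 CPM in mdx/mTR. All 6 mdx/mTR libraries lay below all 6 WT libraries, the lowest of which was WT replicate 2. Psmd2 fell by 0.29 (SE 0.06, edgeR adjusted p 0.00119), by 0.14 with library totals alone (adjusted p 0.0232) and by 0.20 with core scaling. Of its transcript's 50-base stretches 26.4% occur in other genes' transcripts. Psmd1, the other large scaffold, had 234 ± 12.1 and 199 ± 19.4 CPM (SD, n = 6 each) and fell by 0.23 (SE 0.07, edgeR adjusted p 0.0101). Psmd4, a ubiquitin receptor, had 140 ± 9.82 and 122 ± 8.30 CPM (SD, n = 6 each) and fell by 0.19 (SE 0.06, edgeR adjusted p 0.0175). With library totals alone Psmd1 (-0.08) and Psmd4 (-0.03) kept their sign and did not pass. Adrm1, the base's other ubiquitin receptor, did not pass (-0.20, edgeR adjusted p 0.0503). In WT replicate 2 Psmd1 and Psmd4 stood below the rest of the group, at 210 and 120 CPM.

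The lid divided: 4 of 8 genes fell and 1 rose (median -0.11), against 23.4% and 25.0% of all tested genes. With library totals alone 1 was higher and 0 lower (median 0.05), against 40.2% and 11.2%. Psmd13, a structural lid subunit, had 73.1, 74.7 and 77.8 CPM (lowest, median and highest) in WT and 79.2, 81.3 and 82.0 CPM in mdx/mTR. The groups did not overlap, since both had a narrow spread, at 74.7 ± 1.69 and 80.9 ± 1.13 CPM (SD, n = 6 each). Psmd13 rose by 0.11 (SE 0.03, edgeR adjusted p 0.0115), by 0.27 with library totals alone and by 0.21 with core scaling. Part of its transcript (15.8%) is shared with other genes, above all Sirt3, with matches on either strand counted. Whether reads there can be assigned to a single gene depends on the strand handling, which is not given. Psmd12, another lid scaffold, had 105, 112 and 115 CPM in WT and 92.1, 98.7 and 105 CPM in mdx/mTR, without overlap, although the highest mdx/mTR and the lowest WT library nearly met. Psmd12 fell by 0.16 (SE 0.04, edgeR adjusted p 0.00775), with a value of -0.0036 with library totals alone. Psmd7, the partner of the deubiquitinase in the lid, had 148 ± 9.83 and 127 ± 7.92 CPM (SD, n = 6 each) and fell by 0.22 (SE 0.06, edgeR adjusted p 0.0051) and by 0.13 with core scaling. With library totals alone its value was -0.07 and it did not pass (adjusted p 0.231).

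The remaining calls in the lid were less stable. Psmd6 had a log2 fold change of -0.17 (edgeR adjusted p 0.026), and lost its call without WT replicate 3, WT replicate 5 or mdx/mTR replicate 6 (adjusted p up to 0.0592). Psmd3 had a value of -0.12 (edgeR adjusted p 0.0447), which turned to 0.04 with library totals alone, and its call held only in the fits without WT replicate 2, mdx/mTR replicate 3 or mdx/mTR replicate 4 (adjusted p up to 0.0909 in the other 9). Psmd11 (-0.10), Psmd14, the deubiquitinase itself (-0.07), and Psmd8 (-0.07) did not pass; Psmd11 did so without WT replicate 2. The 17 genes of the 19S base and lid had a median of -0.10, with 8 lower and 1 higher, and the 14 genes of the 20S rings a median of -0.04, with 3 lower and 1 higher. With library totals alone the medians were 0.06 and 0.11, with 1 lower and 6 higher and with 0 lower and 7 higher. The difference between these 2 sets was not tested.

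Assembly chaperones build the particle and are not part of it. Psmg1, which pairs with Psmg2 to guide alpha ring formation, had 8.12, 8.80 and 9.27 CPM (lowest, median and highest) in WT and 6.40, 7.13 and 7.39 CPM in mdx/mTR. The groups did not overlap. Psmg1 fell by 0.31 (SE 0.06, edgeR adjusted p 0.00125), by 0.21 with core scaling and had a value of -0.15 with library totals alone, where it did not pass (adjusted p 0.109). Its partner Psmg2 had a value of -0.06 (adjusted p 0.428), and the other pair, Psmg3 (0.00215, adjusted p 0.983) and Psmg4 (0.11, adjusted p 0.419), did not pass. Of the 3 chaperones of the 19S base none passed with TMM and 2, Psmd5 and Psmd10, were higher with library totals alone: Psmd5 (0.12 ± 0.05 SE, edgeR adjusted p 0.0872), Psmd9 (-0.10 ± 0.05, adjusted p 0.0988) and Psmd10 (0.14 ± 0.08, adjusted p 0.151). Psmd5 passed without mdx/mTR replicate 6 (adjusted p 0.0396), and Psmd9 turned positive under library totals alone (0.06).

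Among the activators, 3 of 6 genes of the list fell and none rose (median -0.09), against 23.4% and 25.0% of all tested genes. With library totals alone 0 were higher and 1 lower (median 0.07), against 40.2% and 11.2%. Psme4, an ATP-independent activator known for its role with histones in sperm and after DNA damage, was the most abundant member in CPM. It had 476, 574 and 621 CPM (lowest, median and highest) in WT and 318, 453 and 498 CPM in mdx/mTR. Only WT replicate 2, the lowest WT library, fell within the mdx/mTR range. Psme4 fell by 0.41 (SE 0.10, edgeR adjusted p 0.00415), by 0.26 with library totals alone (adjusted p 0.0162) and by 0.32 with core scaling, and kept its call in each fit without one mouse. Its transcript shares no 50-base stretch with another gene.

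Psme1 and Psme2 encode the partners of the interferon-induced ring activator. Psme1 had 25.6, 29.0 and 35.7 CPM (lowest, median and highest) in WT, the highest in replicate 2, and 21.4, 23.6 and 26.1 CPM in mdx/mTR. The groups overlap only where the lowest WT library, replicate 1, lies below the highest mdx/mTR library, replicate 3. It fell by 0.33 (SE 0.08, edgeR adjusted p 0.00397), and had a value of -0.17 with library totals alone (adjusted p 0.139) and -0.24 with core scaling (adjusted p 0.0735), where it did not pass. Psme2 had 7.61 ± 0.591 and 8.15 ± 1.07 CPM (SD, n = 6 each), did not pass (0.10 ± 0.09 SE, edgeR adjusted p 0.377), and was highest in mdx/mTR replicate 5 at 10.3 CPM. Without that library its log2 fold change was 0.02. It shares 59.3% of its 50-base stretches, mainly with the near-identical Psme2b, so neither level is certain. Psme2b itself had 0.131 to 0.660 CPM over all libraries and did not pass. Whether Psme1 and Psme2 differ in their response was not tested.

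Psme3, which forms the nuclear ring activator, had 68.4 ± 3.23 and 62.3 ± 2.98 CPM (SD, n = 6 each; -0.13 ± 0.05 SE, edgeR adjusted p 0.0249). Its value was 0.02 with library totals alone, and the call was lost without WT replicate 1 (adjusted p 0.0502), WT replicate 5 (0.0584) or mdx/mTR replicate 3 (0.0562). Psmf1, an inhibitor of the 20S particle in vitro, had 19.3 ± 0.988 and 18.8 ± 1.36 CPM (SD, n = 6 each) and did not pass (-0.04, edgeR adjusted p 0.632); its value turned positive under upper quartile scaling (0.0047), library totals alone (0.12) and core scaling (0.06). Psma8, the testis alpha subunit, had 39 counts over the 12 libraries (0 to 9 per library) and Psmb11, the thymus beta subunit, 10, all in mdx/mTR replicates 1, 2 and 5. A count of 3 corresponds to 0.0460 to 0.0837 CPM, and neither gene passed the filter, so they were not tested. Psmc3ip did not pass (-0.24 ± 0.17 SE, edgeR adjusted p 0.26).

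The inducible catalytic genes replace the standard ones in the immunoproteasome, so the ratio of each pair was compared; a ratio does not depend on library scaling. In WT libraries Psmb5 had 2.48 to 8.09 counts for each Psmb8 count, and in mdx/mTR 3.52 to 9.00. Psmb6 to Psmb9 ran from 13.4 to 57.2 in WT and 23.8 to 54.4 in mdx/mTR, and Psmb7 to Psmb10 from 13.1 to 20.1 and 9.83 to 19.9. The standard gene was thus the more abundant of each pair in every library. The log2 ratios differed between mdx/mTR and WT by 0.05, 0.10 and -0.14, less than the SD within groups (0.21 to 0.79), and 2-sided exact permutation tests gave p of 0.840, 0.801 and 0.465 (each adjusted p 0.840 over the 3 ratios). With 6 mice against 6 no p below 0.00216 is possible. The signs of the first and the second difference rested on single libraries. The first was -0.04 without mdx/mTR replicate 1 and -0.04 without mdx/mTR replicate 4, and the second -0.0029 without mdx/mTR replicate 4. The largest shift came from WT replicate 6. It had 13.3 CPM of Psmb8 against 4.15 to 5.08 in the other WT libraries and 7.66 CPM of Psmb9 against 1.86 to 3.53. Without it all 3 ratios were lower in mdx/mTR (-0.21, -0.18 and -0.22, exact permutation adjusted p 0.528 each).

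**Figure D5:**
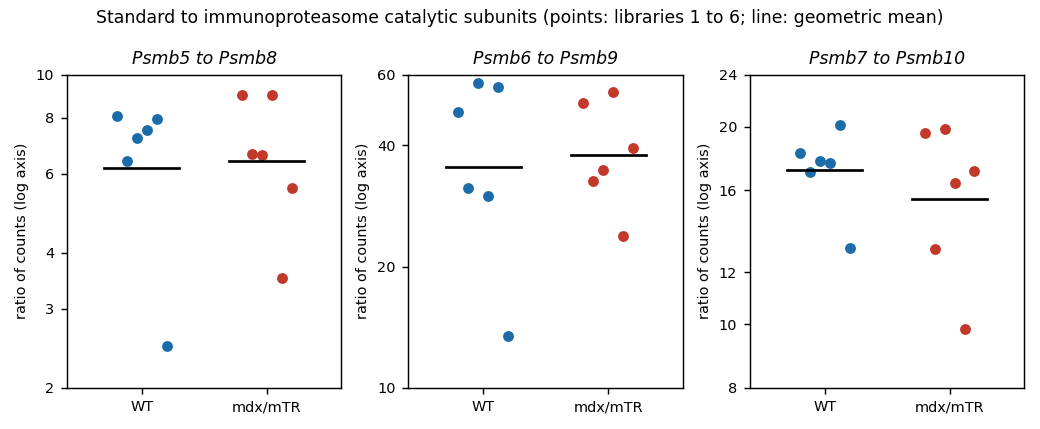
Ratio of standard to immunoproteasome subunit counts (y axis, log scale) in the 6 WT and 6 mdx/mTR libraries, points from left to right being replicates 1 to 6, with the geometric mean as a line. WT replicate 6 and mdx/mTR replicate 5 lie lowest, at 2.48 and 3.52 for Psmb5 to Psmb8.

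None of the immunoproteasome genes passed as levels: Psmb8 (0.10, edgeR adjusted p 0.803), Psmb9 (-0.13, adjusted p 0.749) and Psmb10 (0.08, adjusted p 0.617). Without WT replicate 6 the value of Psmb8 was 0.50 (adjusted p 0.0358), that of Psmb9 0.28 (adjusted p 0.291) and that of Psmb10 0.15 (adjusted p 0.299). The interferon list, whose 8 genes did not pass in either direction, was high in the same WT library, as given above.

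Other genes of the pathway were read from lists. Of 11 tested subunits, chaperones and associated factors outside the Psm series, 2 rose and 4 fell (median -0.17). Over all tested genes 25.0% rose and 23.4% fell. With library totals alone 3 were higher and 2 lower (median -0.01), against 40.2% and 11.2%. Akirin2, which brings proteasomes into the nucleus, rose from 21.3 ± 1.18 to 26.5 ± 1.16 CPM (SD, n = 6 each; 0.31 ± 0.05 SE, edgeR adjusted p 1.8e-04), and Pomp, the chaperone of the beta rings, rose by 0.17 (adjusted p 0.016). Ube3c, a ubiquitin ligase of the proteasome, fell from 111 ± 5.31 to 86.2 ± 3.94 CPM (SD, n = 6 each; -0.36 ± 0.05 SE, edgeR adjusted p 3.5e-05). AI314180, the table's symbol for the scaffold gene Ecpas, fell by 0.31, Txnl1 by 0.19 and Usp14, a deubiquitinase of the cap, by 0.17. Akirin2, Pomp, Ube3c and AI314180 kept their call under all 5 scalings. Txnl1 (-0.03) and Usp14 (-0.01) did not pass with library totals alone.

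In the list around Nfe2l1, 3 of 9 genes rose and 2 fell (median 0.00437), against 25.0% and 23.4% of all tested genes. With library totals alone 4 were higher and 1 lower (median 0.16), against 40.2% and 11.2%. Nfe2l1 had 1048, 1127 and 1199 CPM (lowest, median and highest) in WT and 824, 953 and 988 CPM in mdx/mTR, without overlap. It fell by 0.26 (SE 0.06, edgeR adjusted p 0.00241), by 0.11 with library totals alone (adjusted p 0.0465) and by 0.17 with core scaling. The protein is set mainly by processing after translation, which counts do not show. Its partners Mafk (0.37 ± 0.08 SE, edgeR adjusted p 0.0021) and Maff (0.51, adjusted p 0.00769) rose, as did Ddi2, the protease that activates it (0.37, adjusted p 0.033; lost without WT replicate 2, 3 or 6 or mdx/mTR replicate 1, 4 or 6, adjusted p up to 0.0776). Ngly1, which deglycosylates it, fell by 0.23 (adjusted p 0.014). With library totals alone Ngly1 had a value of -0.08 and did not pass (edgeR adjusted p 0.232).

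Shuttle factors and Vcp, the ATPase that hands ubiquitinated proteins on, had 8 of 11 genes lower and none higher (median -0.19), against 23.4% of all tested genes lower and 25.0% higher. With library totals alone 2 were lower and 1 higher (median -0.03), against 11.2% and 40.2%. Ubqln4 had 171 ± 16.3 and 119 ± 7.49 CPM (SD, n = 6 each) and fell by 0.52 (SE 0.07, edgeR adjusted p 3.4e-05), and Ubqln1 fell by 0.19 (adjusted p 0.00103). With library totals alone Ubqln4 kept its call (-0.37), whereas Ubqln1 had a value of -0.03 and did not pass (edgeR adjusted p 0.507). Uba1, the main ubiquitin-activating enzyme, did not pass (-0.07, edgeR adjusted p 0.167) and was positive with library totals alone (0.09) and core scaling (0.03). For scale, 2 other large complexes are given beside the proteasome. The COP9 signalosome, a relative of the lid, had 3 of 9 tested genes lower and none higher (median -0.11; with library totals alone 1 was lower and 2 higher, median 0.05), led by Cops3 (-0.38, edgeR adjusted p 4.3e-05), with Cops8 at -0.15 (adjusted p 0.0353; 0.00154 with library totals alone). The cytosolic chaperonin had 2 of 8 lower and none higher (median -0.09; with library totals alone 0 were lower and 2 higher, median 0.07), Cct2 (-0.17, edgeR adjusted p 0.00651) and Cct6a (-0.20, adjusted p 0.0145). Whether the proteasome differs from either complex was not tested.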

How the data were processed

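RNA from the tibialis anterior of 12 mice, 6 per group, had been sequenced, and the authors deposited a table of raw counts per gene symbol (24421 entries, 5131 with no count). STAR, FastQC and DESeq2 and the build mm10 are named in the submitters' processing notes, without role or version, and the counter, annotation and strand handling are not given in the sources used here. A second table that the authors deposited gives their own comparison: a mean normalized signal per gene, log2 fold changes and their standard errors, a test score and p-values. 0 per-sample columns were left unmatched. The labels do not say more of the mice than their strain, age and sex, so p-values measure the spread between these samples.

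Counts were tested with edgeR 4.0.16 (R 4.3.3; filterByExpr, TMM, glmQLFit and glmQLFTest on group), with Benjamini-Hochberg adjustment over all 13937 tested genes and a threshold of 0.05. The SE is the log2 fold change divided by the square root of F. CPM use TMM-scaled library sizes. Ratios of counts were tested by 2-sided exact permutation over 924 assignments (smaller tail doubled). The scripts were tested on simulated data. Members, lists and rules for naming genes were chosen with earlier results of these data known. Named were the 2 smallest p of each role and list (all members of lists of up to 3), the catalytic subunits, the activators and Nfe2l1, with other members by value and any further gene after its values were seen. One result that this rule names is not reported here. Lengths and shared 50-base stretches (matches on either strand) came from GENCODE M21, and promoters from the RefSeq table. Alternatives were other scalings, filters, DESeq2 1.42.0, limma-voom (limma 3.58.1), a replicate block, a threshold of 0.01 and leaving out each mouse. No replicate pair agreed within sampling noise (chi-square per degree of freedom at least 9.14). A count of 3 was taken as the limit that a count of 0 allows; it covers counting error only.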

Additional observations from a re-analysis of the deposited data

Results flagged for a closer look

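Of 126 groups of 6 libraries examined for a library far from the rest, 17 held one, where chance alone gives about 1 in 20, or 6.3. The groups come from the same libraries, and the ratios reuse the counts of the genes, so the groups are not independent. Setting 17 beside 6.3 is therefore no test. WT replicate 2 was the lowest WT library for Psmd1 (210 CPM, the others 235 to 244), Psmd2 (247, the others 278 to 288), Psmd4 (120, the others 142 to 144) and Psmd7 (128, the others 150 to 154). The same library was lowest for Psmc2 (113 CPM), Psmc3 (175 CPM), Psme4 (476 CPM) and Cct2 (107 CPM). WT replicate 6 was the highest WT library for Psmb8 (13.3 CPM), Psmb9 (7.66 CPM) and Psmb10 (14.2 CPM), and its log2 ratio of Psmb5 to Psmb8 was the lowest (1.31, the others 2.68 to 3.02). In mdx/mTR replicate 5, Psme2 was highest (10.3 CPM, the others 7.34 to 7.95) and Nfe2l1 lowest (824 CPM, the others 933 to 988). Single libraries also stood apart for Psmb5 (WT replicate 1, highest at 36.0 CPM), Psmg4 (WT replicate 4, lowest at 2.20 CPM) and Psmg1 (mdx/mTR replicate 3, lowest at 6.40 CPM).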

How the results depend on the processing

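With TMM 2 members were higher and 15 lower. Library totals alone gave 15 higher and 2 lower, upper quartile scaling 4 higher and 10 lower (12 of the 17 calls shared), core scaling (added after seeing the data) 7 higher and 6 lower, and a threshold of 0.01 gave 9 calls, 1 higher and 8 lower. Leaving out each mouse gave 12 (without WT replicate 5) to 19 calls (without WT replicate 2). Over all tested members, 31 values were below 0 with TMM, 13 with library totals alone and 19 with core scaling. Of the genes named by rule, signs turned with library totals alone for Psmb7 (0.078), Psme3 (0.021), Psmf1 (0.12), Psmb9 (0.027), Psma4 (0.047), Psmc4 (0.12), Psmd9 (0.060), Uba1 (0.090) and Cops8 (0.0015), with upper quartile scaling for Psmf1 (0.0047) and Psmc4 (0.0072), with core scaling for Psmb7 (0.013), Psmf1 (0.055), Psmc4 (0.057) and Uba1 (0.026), and with limma-voom for Psmb9 (0.013); the cause was not tested. Leaving out each mouse moved Psmb8 from -0.073 to 0.50, Psmb9 from -0.26 to 0.28, Psmb10 from -0.0099 to 0.15, the log2 ratio of Psmb5 to Psmb8 from -0.21 to 0.23 and that of Psmb6 to Psmb9 from -0.18 to 0.24. The labels do not state that replicate numbers pair the mice. Same-numbered samples had correlations of deviations from -0.15 to 0.35, with 2 of 6 over 0.1. These values cannot decide whether the numbers stand for pairs or shared handling. With the replicate block 13 members were called, 1 of them higher, and Psma4, Psmd3, Psmd13 (adjusted p 0.0502) and Psme3 were not. Members that did not pass are not shown to be unchanged.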

Other observations

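Psmd8, a lid subunit, was the core gene with the widest spread in WT, 195 ± 29.1 CPM (SD, n = 6), against 186 ± 8.70 CPM in mdx/mTR (SD, n = 6). Its WT libraries fell into a pair of separate ranges: replicates 1, 3 and 5 had 218, 217 and 227 CPM, and replicates 2, 4 and 6 had 156, 175 and 178 CPM, while the mdx/mTR libraries ran from 176 to 198 CPM. Psmb7 showed the same WT libraries higher, at 204, 203 and 199 CPM against 188, 183 and 186 CPM. So did Psma2, Psma3, Psma4, Psmb3, Psmb6 and Psmc5, by smaller steps, and outside the members Cops4 and Cops8. The rest of the core genes did not separate these libraries, so the split was neither particular to Psmd8 nor shared by all. The labels separate these WT libraries by nothing but their number, and this split was noticed after the values were seen and was not tested.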
